A study of Mus musculus with 8 samples.

Results

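This comparison sets mouse liver endothelial cells labelled dKO against cells labelled WT when both had received the inflammatory cytokines IL1B and TNFA. It uses 4 of the 8 libraries of the series, chosen by genotype and treatment in the labels and not by any measured value. Endothelial cells were isolated from liver, grown in endothelial medium and exposed to 4-OHT, the active form of tamoxifen, for 48 hours. Culture then continued to day 7, when the cytokines were added for 16 hours before lysis. The 4 untreated libraries, 2 WT and 2 dKO, passed through the same steps without cytokines. The labels do not expand dKO. The design text speaks of deletion of Erg and/or Fli1, and neither the Cre driver nor the deleted exons are given in the sources used here. The protocols place the 4-OHT treatment in the culture medium in one field and in the mice in another, so its place is not settled here. Before RNA was prepared, the cells were sorted as live, CD45-negative, CD31-positive and VE-cadherin-positive. Such a sort removes cells that have lost either endothelial surface protein.

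ERG and FLI1 are transcription factors of the ETS family, which bind DNA at a short core sequence, and both are abundant in endothelium. They are known as activators of genes that give endothelial cells their adhesion, junction and growth factor receptor programme, and ERG is also known to hold back inflammatory genes at rest. IL1B and TNFA act through their receptors on the NF-kB and AP-1 factors, and endothelium answers with adhesion molecules, chemokines and cytokines that recruit leukocytes. A second layer of this answer is carried by interferons, which act through JAK kinases and STAT and IRF factors on genes of antiviral defence.

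The 4 libraries are called WT 1, WT 2, dKO 1 and dKO 2 from here on, and values are given in that order with n = 2 for each genotype. They held 23836723, 25955438, 24652645 and 24055678 counts, and the untreated ones between 23009062 and 26944030. Levels are CPM, counts scaled to a common library size, and differences are fitted log2 values of dKO minus WT. The adjusted p comes from edgeR's quasi-likelihood test on all 8 libraries, with Benjamini-Hochberg adjustment over 15698 tested genes, and a gene is called higher or lower where it is under 0.05. Nothing in the labels says that libraries came from separate animals or cultures, so a p-value speaks only of the spread among these libraries. In bulk RNA, fewer cells of a type and less RNA per cell cannot be told apart. On the leading principal component (57.1% of variance) dKO 2 lay at 42.9, between dKO 1 at 89.2 and the WT libraries at -85.8 and -79.8. It also held transcripts of both sexes, with Xist, which marks the inactive X chromosome, at 171 CPM and the Y-linked Ddx3y at 118 CPM. Xist stood at 0.926, 454 and 1.32 CPM in WT 1, WT 2 and dKO 1, and Ddx3y at 110.2, 0.0393 and 158 CPM. Results are given without both dKO 2 libraries, treated and untreated, where this moves them, as an alternative chosen after seeing the data. Each dKO group then has 1 library, which is assumed to vary like WT, and the spread comes from the WT libraries alone. These differed less between replicates than the dKO libraries did (chi-square per degree of freedom 22.6 and 29.7 against 92.4 and 83.6), so a higher count in that setting is not a firmer result.

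Erg (chr16:95359169-95586593 of GRCm38, minus strand) had 208 and 201 CPM in WT and 34.7 and 90.2 CPM in dKO under cytokines, a log2 difference of -1.71 (adjusted p = 0.0538). Fli1 (chr9:32422204-32542861, minus strand) had 91.5 and 96.4 CPM in WT and 12.4 and 35.2 CPM in dKO, a difference of -1.98 (adjusted p = 0.0562). Both dKO libraries lay below both WT libraries for both genes, and dKO 2 kept more of each transcript than dKO 1. Neither gene passed the threshold in edgeR with the filter and design used here. Both genes passed in DESeq2, with adjusted p = 0.00077 for Erg and adjusted p = 0.000581 for Fli1, and in edgeR without dKO 2, with adjusted p = 0.0261 for Erg and adjusted p = 0.0389 for Fli1. In edgeR they also passed with at least 1 CPM in 2 libraries (adjusted p = 0.0481 and adjusted p = 0.0494) and when untreated dKO 1 or untreated dKO 2 was left out (adjusted p from 0.0363 to 0.0414). The adjusted p was highest without a filter for Erg (0.184) and without dKO 1 for Fli1 (0.20). The counts are for whole genes and may include exons that were not deleted.

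Of the 15698 tested genes, 5343 (34.0%) were called, 2926 higher (18.6%) and 2417 lower (15.4%) in dKO under cytokines. DESeq2 called 5783 of 15106 genes with an adjusted p (38.3%), 3036 higher (20.1%) and 2747 lower (18.2%). Without both dKO 2 libraries edgeR called 6671 genes (41.0%), 3395 higher (20.9%) and 3276 lower (20.2%). The median difference over all tested genes was 0.01. Counts of list members below are to be read beside the shares of 18.6% higher and 15.4% lower. Leaving out single treated libraries moved the count of 5343 most, to 1621 without WT 1, 2306 without WT 2 and 2362 without dKO 1, and stayed between 3798 and 6671 in the other settings. In 11532 tested genes (73.5%) the dKO and WT libraries did not overlap, so a lack of overlap in a single gene is the common case.

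**Figure D1:**
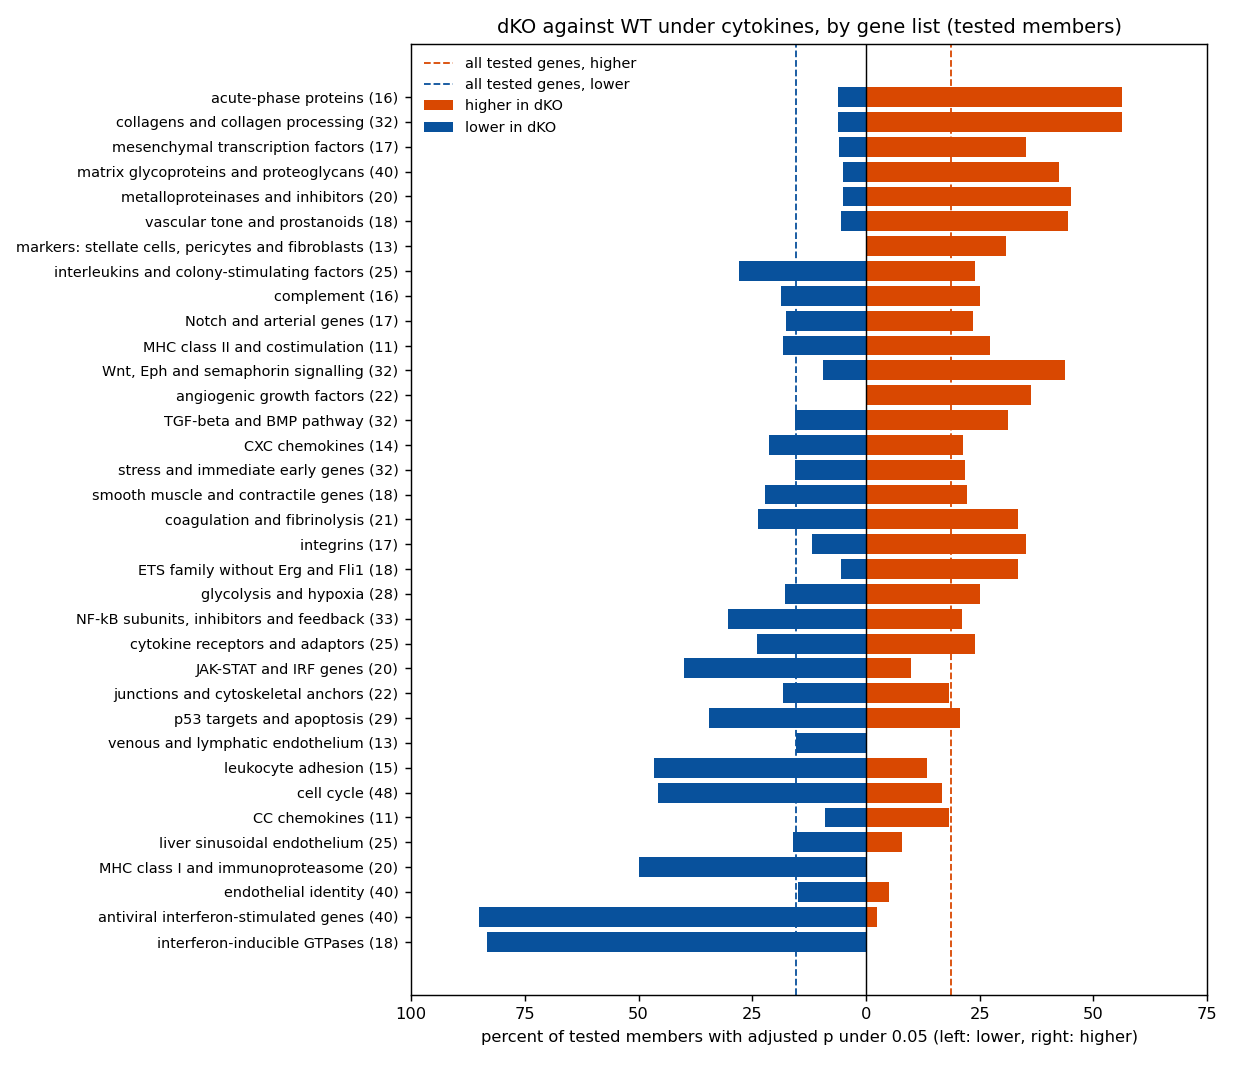
Share of the tested members of each gene list called higher (bars to the right) or lower (bars to the left) in dKO under cytokines, in percent, for lists with at least 10 tested members, ordered by median log2 difference with the number of tested members in brackets. Dashed lines mark the shares over all tested genes, 18.6% higher and 15.4% lower. The 2 interferon lists reach furthest to the left, and acute-phase proteins and collagens furthest to the right.

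The largest falls were almost all genes of the interferon response. Ifit3 (IFIT proteins bind foreign RNA) stood at 295 and 86.3 CPM in WT and 1.27 and 0.883 CPM in dKO, 177-fold lower (log2 -7.46, SE 0.90, adjusted p = 0.00408). Rsad2, the antiviral enzyme viperin, stood at 202 and 62 CPM in WT and 1.04 and 1.1 CPM in dKO, 123-fold lower (log2 -6.93, SE 0.67, adjusted p = 0.00254). In each of these genes the WT libraries were separated from each other by more than 3-fold, with WT 1 above WT 2, and both dKO libraries lay far below either. The other large falls with at least 10 CPM in a genotype were Ifit3b, Cxcl10, Ifit1, Oas3, Apol9a, Mx2, Cmpk2, Usp18, Ifi44 and Ifit2, with differences from -7.95 to -5.23. Ifit3 and Ifit3b are near-identical and can share counts, as can Apol9a and its near copy.

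The largest rises were genes that WT cells hardly transcribed. Fbln1, which encodes the matrix protein fibulin-1, stood at 2.07 and 1.92 CPM in WT and 1272 and 374 CPM in dKO (412-fold, log2 8.68, SE 0.98, adjusted p = 0.00358). Tesc, which encodes a calcium-binding protein, had no count in either WT library and 35.5 and 8.44 CPM in dKO, at least 349-fold higher over a floor of 3 counts (adjusted p = 0.0076). S1pr3, a receptor for sphingosine 1-phosphate, stood at 0.309 and 0.236 CPM in WT and 142 and 23.5 CPM in dKO (log2 8.23, SE 1.31, adjusted p = 0.00809). The 2 dKO libraries were well apart in these genes, with dKO 1 the higher, and neither approached WT. Ahsg, Loxl1, Saa2, Mgp, Spp1 and Crabp2 rose by log2 differences from 7.5 to 8.63, and Cnmd had 1 count in WT, a ratio of 589.8 (95% counting interval 105 to 23336). Elfn1 and Slc36a2 also had at most 3 counts in WT, for Elfn1 a ratio of 271 (95% counting interval 92.2 to 1315) and for Slc36a2 a ratio of 259.8 (95% counting interval 88.6 to 1263).

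The first question is whether cytokine-treated dKO cells still carried endothelial transcripts. Of 40 endothelial identity genes, 6 were lower and 2 higher, with a median of -1.4. The shares over all tested genes were 15.4% lower and 18.6% higher, so the lower count was near the background. By sign alone, 31 of the 40 differences were below 0 and 9 above, while 7937 of all 15698 tested genes were above 0. All 6 lower genes are surface or signalling proteins of the vessel wall or a factor of the lineage. Tie1, a receptor of the angiopoietin system, stood at 409 and 399 CPM in WT and 86.6 and 141 CPM in dKO (log2 -1.83, SE 0.28, adjusted p = 0.00613). Emcn, a sialoglycoprotein of the luminal surface, stood at 654 and 718 CPM in WT and 193 and 264 CPM in dKO (log2 -1.59, SE 0.23, adjusted p = 0.00528). Eng, a co-receptor for BMP ligands, stood at 1041 and 940.5 CPM in WT and 320.3 and 417 CPM in dKO (log2 -1.43, SE 0.27, adjusted p = 0.0106), and Vwf, the platelet-binding glycoprotein of clotting, at 828 and 579 CPM in WT and 226 and 301 CPM in dKO (log2 -1.42, SE 0.25, adjusted p = 0.00907). For these 4 genes both dKO libraries were below both WT libraries and dKO 2 was above dKO 1. Esam (-1.03) and the transcription factor gene Mef2c (-0.92) completed the lower set, and Klf2 (1.34), a flow-responsive factor, and Lyl1 (0.51) were higher.

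For other defining endothelial genes the dKO libraries differed from each other. Cdh5, which encodes the VE-cadherin used in the sort, stood at 1442 and 1390.3 CPM in WT and 289.8 and 600.0 CPM in dKO (adjusted p = 0.0842), and Pecam1, the CD31 of the sort, at 797 and 830.3 CPM in WT and 339.9 and 555 CPM in dKO (adjusted p = 0.144). Robo4, a guidance receptor of endothelium, stood at 65 and 111 CPM in WT and 0.409 and 37.1 CPM in dKO, and Sox18 at 115 and 159.7 CPM in WT and 1.04 and 65.5 CPM in dKO. In Robo4 and Sox18 dKO 1 was close to 0 while dKO 2 lay within an order of magnitude of WT, and neither gene passed. The sort markers were thus present in all 4 libraries, while some defining genes were near 0 in dKO 1. The summed level of the list was 10692 and 10652 CPM in WT and 3060.3 and 5388 CPM in dKO. The 6 lower members became 3 without WT 1, 10 without untreated dKO 2 and 28 without both dKO 2 libraries, and were 12 in DESeq2. The 2 higher members were 0 without WT 1 and 1 without WT 2 or dKO 1.

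**Figure D2:**
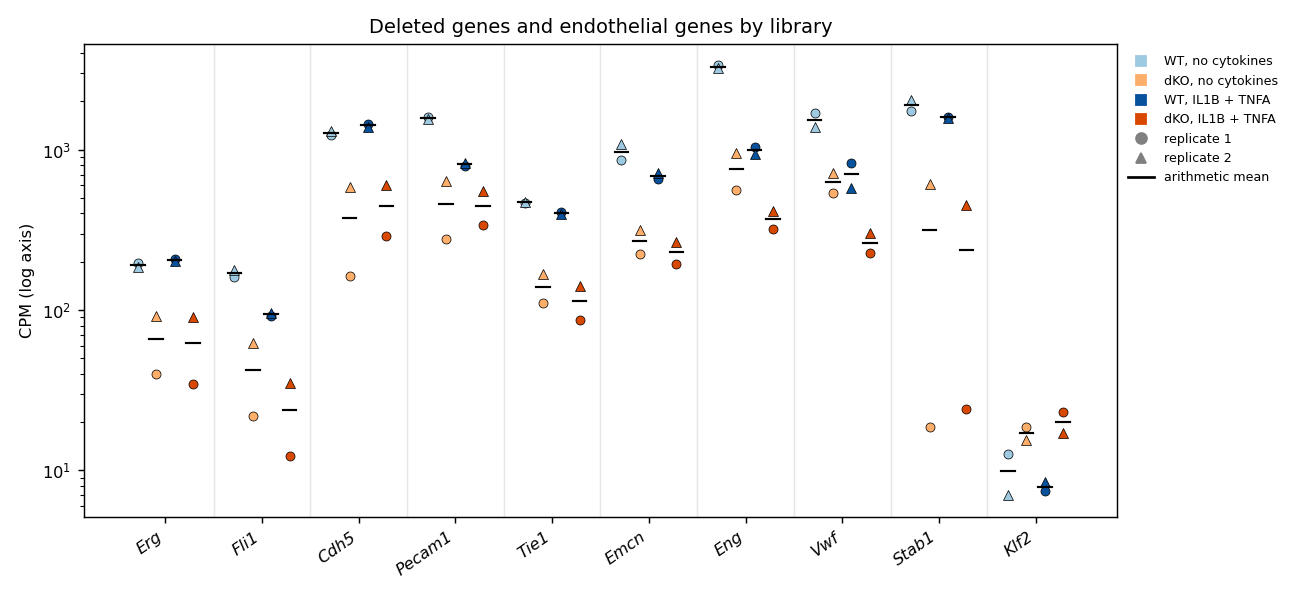
CPM on a log axis of Erg, Fli1 and 8 endothelial genes in all 8 libraries, by genotype and treatment, with circles for replicate 1, triangles for replicate 2 and bars for the arithmetic mean of each group. In Stab1 the dKO libraries stand far apart, at 24 and 449.7 CPM under cytokines, and in Klf2 alone of these genes the dKO libraries lie above WT.

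Liver sinusoidal endothelium clears waste from blood and makes clotting factor VIII. Of 25 genes of this specialised endothelium, 4 were lower and 2 higher (median -0.84), the lower count again near the 15.4% of all tested genes. By sign alone, 19 of the 25 differences were below 0 and 6 above. F8, the gene of factor VIII, stood at 56.1 and 87.8 CPM in WT and 1.95 and 7.82 CPM in dKO (log2 -3.88, SE 0.76, adjusted p = 0.0146). Maf, a transcription factor of sinusoidal identity, stood at 24.9 and 20.5 CPM in WT and 1.77 and 3.75 CPM in dKO (log2 -3.03, SE 0.54, adjusted p = 0.0105), and Ehd3 and Tfec were also lower (-2.33 and -1.62). Hgf, the hepatocyte growth factor through which this endothelium acts on liver cells, stood at 51.1 and 40.3 CPM in WT and 182 and 179 CPM in dKO, 3.95-fold higher (log2 1.98, SE 0.15, adjusted p = 0.00116), and Zfp354c was higher too (2.04). The scavenger receptor gene Stab1 stood at 1602 and 1588 CPM in WT and 24 and 449.7 CPM in dKO (adjusted p = 0.26), with the dKO libraries apart. The count of lower members was 2 without WT 1, WT 2 or dKO 1 and 9 without both dKO 2 libraries.

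Among the 18 other ETS factors tested, 6 were higher and 1 lower (median -0.01), beside 18.6% and 15.4% of all tested genes. Etv5, a factor downstream of FGF signalling, stood at 18.2 and 17.6 CPM in WT and 57.6 and 57.8 CPM in dKO (log2 1.69, SE 0.09, adjusted p = 0.000769), and the libraries of each genotype were nearly equal. Spib, known from lymphoid cells, stood at 6.22 and 5.14 CPM in WT and 188 and 30.8 CPM in dKO (log2 4.27, SE 0.98, adjusted p = 0.0225). Elf3, an epithelial factor, had 1 count in WT, a ratio of 70.1 (95% counting interval 12.1 to 2810.1). Etv1 (3.7), Etv3 (1.61) and Elk1 (0.90) were higher, and Elf1, which endothelium normally expresses, was the lower member (-0.86). The 6 higher members were 2 without WT 1, and the lower count was 4 without untreated dKO 1 or untreated dKO 2 and 5 without both dKO 2 libraries.

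Of 25 receptors and adaptors of the cytokine signal, 6 were higher and 6 lower (median -0.12), beside 18.6% and 15.4% of all tested genes. Tnfrsf1b, the gene of TNF receptor 2, stood at 52 and 44.3 CPM in WT and 186 and 131 CPM in dKO (log2 1.72, SE 0.26, adjusted p = 0.00589), and Il1r1, the signalling receptor of IL-1, at 301 and 284 CPM in WT and 426 and 381 CPM in dKO (log2 0.47, SE 0.13, adjusted p = 0.0313). Osmr, the oncostatin M receptor, and Lifr, its relative for leukemia inhibitory factor, were higher by 1.38 and 1.01, and so were Traf5 and the brake gene Irak3. In the IL-1 receptor system 5 of 12 genes were lower and 2 higher, and in the TNF receptor system 1 of 8 were lower and 2 higher. Myd88, the adaptor shared by IL-1 and Toll-like receptors, stood at 68.4 and 51.5 CPM in WT and 32.5 and 31.7 CPM in dKO (log2 -0.90, SE 0.14, adjusted p = 0.00641). Irak2, Irak4, Traf6 and Tollip were lower, with log2 differences between -0.65 and -0.41, and Ripk1, the kinase of the TNF receptor complex, with -1.11. Myd88 shares 11.3% of its exon bases with Acaa1a, so its count is uncertain. The count of higher members was 2 without WT 2 or dKO 1 and 3 without WT 1, and the lower count 2 without WT 1 or WT 2, 3 without dKO 1 and 10 without both dKO 2 libraries.

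Of 33 NF-kB subunits, inhibitors and feedback genes, 10 were lower and 7 higher (median -0.08), beside 15.4% and 18.6% of all tested genes. Ripk2, the kinase that passes NOD signals to NF-kB, stood at 733 and 631 CPM in WT and 159.7 and 174 CPM in dKO, 4.09-fold lower (log2 -2.03, SE 0.13, adjusted p = 0.000883). Its untreated values were 37.8 and 42.3 CPM in WT and 43.7 and 38.7 CPM in dKO, a difference of 0.04. The WT and dKO libraries thus overlapped without cytokines and were clearly separate with them. In edgeR with the design used here, the change between these conditions did not pass for Ripk2 (adjusted p = 0.10). The subunit genes Rela (276 and 233 CPM in WT and 153 and 186 CPM in dKO), Relb (-0.64) and Nfkb1 (-0.67) were lower. So were the IkB family genes Nfkbib (-1.09), Nfkbid (-1.19), Nfkbie (-0.56) and Bcl3 (-0.47), the kinase gene Ikbkb (-0.33) and the brake N4bp1 (-1.12).

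The 7 higher members of that list were mainly secreted proteins and RNA or signal brakes. Lcn2, the iron-scavenging lipocalin of the acute phase, stood at 3639 and 3695 CPM in WT and 16924 and 11244 CPM in dKO (log2 1.94, SE 0.35, adjusted p = 0.00897). Saa3, a serum amyloid A protein, stood at 6849 and 7105 CPM in WT and 28537 and 17732 CPM in dKO (log2 1.73, SE 0.49, adjusted p = 0.0387), and Tnfaip6, a hyaluronan-binding protein induced by TNF, at 2.69 and 2.04 CPM in WT and 34.1 and 8.48 CPM in dKO (log2 3.17, SE 0.74, adjusted p = 0.0223). Tnfaip8, Zc3h12a, Tnip2 and Ikbkg were higher by 1.54, 1.25, 0.68 and 0.55. Nfkbia, the classical inhibitor induced by NF-kB, stood at 1258 and 1108 CPM in WT and 1199.6 and 1114 CPM in dKO (adjusted p = 0.872), so its 4 libraries overlapped and lay within a narrow range. The count of lower NF-kB members was 3 without WT 1 or dKO 1 and 6 without WT 2, and that of higher members 2 without WT 1 or WT 2 and 3 without dKO 1.

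Of 15 leukocyte adhesion genes, 7 were lower and 2 higher (median -0.62), beside 15.4% lower and 18.6% higher over all tested genes. Sele, the gene of E-selectin on which leukocytes roll, stood at 5952 and 4445 CPM in WT and 418 and 697 CPM in dKO, 9.33-fold lower (log2 -3.22, SE 0.85, adjusted p = 0.0336). Icam1, the ligand of leukocyte integrins, stood at 6707 and 5497 CPM in WT and 1610.0 and 2128 CPM in dKO (log2 -1.71, SE 0.32, adjusted p = 0.0104). In both genes the dKO libraries lay below both WT libraries, and also below them without cytokines, where Sele stood at 461 and 426 CPM in WT and 15.8 and 104 CPM in dKO. Madcam1 (-3.65), L1cam (-2.27), Alcam (-1.41) and Cd47 (-0.62) were among the other lower members.

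Vcam1, the ligand of the integrin VLA-4, stood at 5184 and 3291 CPM in WT and 3724 and 2612 CPM in dKO (adjusted p = 0.28), with overlapping libraries. The higher members were Podxl2, a sialomucin, at 0.176 and 0.51 CPM in WT and 8.09 and 8.7 CPM in dKO (log2 4.57, SE 0.54, adjusted p = 0.00322), and Vnn1, a pantetheinase, at 5.6 and 7.93 CPM in WT and 141 and 103 CPM in dKO (log2 4.17, SE 0.48, adjusted p = 0.00349). Selp, the P-selectin gene listed with venous genes, stood at 12253 and 11227 CPM in WT and 2121 and 3509.6 CPM in dKO (log2 -2.06, SE 0.40, adjusted p = 0.0122). The adhesion count of lower members was 1 without WT 1 or dKO 1 and 3 without WT 2. Selp was 1 of 2 lower of 13 venous and lymphatic genes, with Ephb4 (-0.37) the other. That count was 0 without WT 1 or dKO 1, 1 without untreated WT 1, untreated WT 2 or WT 2 and 4 without both dKO 2 libraries, and 5 in DESeq2. Selp shares 14.1% of its exon bases with antisense or neighbouring genes.

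Of 14 members of the CXC chemokine list, 3 were higher and 3 lower (median 0.20), near the 18.6% and 15.4% of all tested genes. The 3 lower genes were the 3 interferon-inducible ligands of CXCR3, which attract T cells. Cxcl10 stood at 500.3 and 127 CPM in WT and 1.45 and 1.68 CPM in dKO, 200.4-fold lower (log2 -7.64, SE 0.83, adjusted p = 0.00336). Cxcl9 stood at 13.5 and 2.43 CPM in WT and 0.0909 and 0.0442 CPM in dKO (adjusted p = 0.0141), with 3 counts in dKO in all, and for WT over dKO a ratio of 114 (95% counting interval 38.7 to 556). Cxcl11 stood at 5.6 and 1.88 CPM in WT and had no count in dKO, at least 54.1-fold lower over the floor (adjusted p = 0.0221). In all 3 genes WT 1 was above WT 2, and no dKO library came near either.

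None of the 6 neutrophil-attracting CXC genes passed. Cxcl5 stood at 5936 and 6056 CPM in WT and 6269 and 5954 CPM in dKO, Cxcl2 at 2104 and 1912 CPM in WT and 3191 and 2928 CPM in dKO and Cxcl1 at 540.4 and 1319 CPM in WT and 488 and 825 CPM in dKO. Their libraries overlapped in Cxcl5 and Cxcl1, whereas in Cxcl2 both dKO libraries were above WT. The homeostatic chemokine Cxcl12, which retains blood progenitors, stood at 3.97 and 6.05 CPM in WT and 1064 and 403 CPM in dKO (147-fold higher, log2 7.19, SE 1.17, adjusted p = 0.00862). It had 7.57 and 40.2 CPM in WT and 4171 and 1571 CPM in dKO without cytokines, so the dKO libraries were the high ones under both conditions. Its scavenging receptor Ackr3 (1.25) and Cxcl14 (1.43) were higher. The 3 higher members were 0 without WT 1 or WT 2 and 1 without dKO 1, and the 3 lower members 1 without dKO 1.

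Of 11 CC chemokines, 2 were higher and 1 lower (median -0.69), near the 18.6% and 15.4% of all tested genes. Ccl5, a T cell attractant, stood at 137 and 189.6 CPM in WT and 48.3 and 32.1 CPM in dKO (log2 -2.02, SE 0.41, adjusted p = 0.015), lower in both dKO libraries. Ccl2, the main monocyte attractant, stood at 10333 and 8679.7 CPM in WT and 8206 and 10205 CPM in dKO (adjusted p = 0.87) and its libraries overlapped. Its neighbour Ccl7 stood at 3105 and 2259 CPM in WT and 4067 and 4360.5 CPM in dKO (log2 0.65, SE 0.18, adjusted p = 0.0364), and Ccl28 was higher by 2.01. The 2 higher genes became 0 without dKO 1 and 1 without untreated WT 1, untreated WT 2, WT 1 or WT 2, and the lower gene 0 without WT 1 or WT 2, 3 without dKO 2 and 4 without both dKO 2 libraries.

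**Figure D3:**
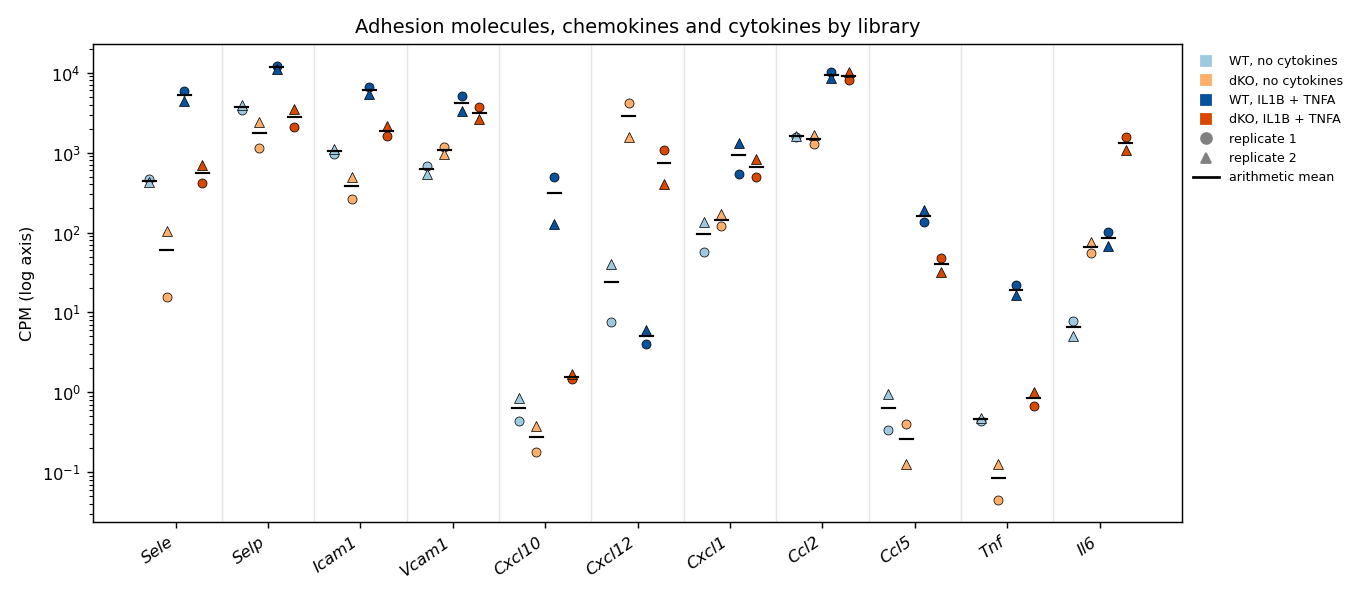
CPM on a log axis of 11 adhesion molecules, chemokines and cytokines in all 8 libraries, with circles for replicate 1, triangles for replicate 2 and bars for the arithmetic mean. Under cytokines Sele, Icam1, Cxcl10, Ccl5 and Tnf lie lower and Cxcl12 and Il6 higher in dKO, while the libraries of Vcam1, Cxcl1 and Ccl2 overlap.

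Of 25 interleukins and other secreted cytokines, 6 were higher and 7 lower (median 0.66), beside 18.6% and 15.4% of all tested genes. Il6, which drives the acute phase, stood at 101 and 67.2 CPM in WT and 1552 and 1076 CPM in dKO, 15.6-fold higher (log2 3.96, SE 0.35, adjusted p = 0.00191). Il1a, an alarmin of injured cells, stood at 7.98 and 7.19 CPM in WT and 65.5 and 71.4 CPM in dKO (log2 3.17, SE 0.20, adjusted p = 0.000879), and Il33, an alarmin stored in the nucleus, at 0.661 and 1.69 CPM in WT and 183 and 33.1 CPM in dKO (log2 6.5, SE 1.23, adjusted p = 0.0132). Il6 and Il1a had dKO libraries close to each other, while those of Il33 were far apart, dKO 1 above dKO 2. Il1a shares 11.25% of its exon bases with Gm14023, so its count is uncertain. Il11 (2.54), Clcf1 (0.95) and the IL-1 receptor antagonist Il1rn, with 2 counts in WT (a ratio of 32.9 (95% counting interval 8.72 to 278)), completed the higher set.

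The lower cytokines included Tnf, at 22 and 16.4 CPM in WT and 0.681 and 1.02 CPM in dKO, 22.6-fold lower (log2 -4.49, SE 0.35, adjusted p = 0.00127). Tnfsf10, the death ligand TRAIL, stood at 279 and 139 CPM in WT and 3.5 and 11.8 CPM in dKO (log2 -4.77, SE 0.83, adjusted p = 0.0103), and Tslp, an activator of dendritic cells, at 1480.4 and 918 CPM in WT and 118 and 277 CPM in dKO (log2 -2.6, SE 0.55, adjusted p = 0.0171). No dKO library reached a WT library in these 3 genes. Il15 (-2.15), Il23a (-2.62), Tnfsf15 (-2.83) and Tnfsf18 (-3.75) were also lower. Higher members numbered 2 without WT 1 and 3 without WT 2, dKO 1 or dKO 2, and the lower count 2 without WT 1 and 4 without dKO 1.

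The lists with the highest share of lower members were those of the interferon system. Of 40 antiviral interferon-stimulated genes, 34 were lower and 1 higher, with a median of -2.88 against 0.01 over all tested genes. All 9 sensors of foreign nucleic acid or bacterial products were lower, among them Ifih1, the double-stranded RNA sensor MDA5, at 109.8 and 51.6 CPM in WT and 19.6 and 18.4 CPM in dKO (log2 -2.09, SE 0.34, adjusted p = 0.00791), and Tlr3 at 131 and 78.1 CPM in WT and 18.7 and 21.9 CPM in dKO (log2 -2.36, SE 0.27, adjusted p = 0.00317). Among effectors 25 of 31 were lower. Isg15, a ubiquitin-like modifier, stood at 302 and 93.1 CPM in WT and 11.6 and 7.07 CPM in dKO (log2 -4.41, SE 0.67, adjusted p = 0.0073), and Ifit1 at 316 and 100.05 CPM in WT and 2.73 and 1.46 CPM in dKO (log2 -6.63, SE 0.78, adjusted p = 0.00388). In these genes WT 1 was the highest library and WT 2 the next, and both dKO libraries were well below. Ifitm1, which blocks viral entry, was the higher member at 0.97 and 2.43 CPM in WT and 14.6 and 6.85 CPM in dKO (log2 2.64, SE 0.53, adjusted p = 0.0133).

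Interferon-inducible GTPases, which attack the compartments of intracellular microbes, were lower in 15 of 18 and higher in 0 (median -3.17). Gbp2 stood at 756 and 343 CPM in WT and 190.3 and 117 CPM in dKO (log2 -1.84, SE 0.48, adjusted p = 0.0318). Iigp1 stood at 473 and 178 CPM in WT and 33.4 and 27.5 CPM in dKO (log2 -3.42, SE 0.50, adjusted p = 0.00655), and Tgtp2 at 27.8 and 17.1 CPM in WT and 0.50 and 0.928 CPM in dKO (log2 -4.96, SE 0.47, adjusted p = 0.00195). Gbp2 kept the most transcript in dKO of these 3 genes relative to its WT level. Gbp10 and Gvin1 were lower, with log2 differences of -5.31 and -4.97. Without single libraries the count of lower antiviral genes ranged from 24 to 34 and that of lower GTPases from 13 to 15. Without both dKO 2 libraries they were 23 and 11. Without WT 1 the call of Ifitm1 was lost and 0 antiviral genes were higher.

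Without cytokines the median difference of the antiviral genes between dKO and WT was -0.43, with 5 lower and 3 higher of 40 against 9.66% lower and 13.4% higher of all tested genes. For the GTPases it was -0.22, with 3 lower and 0 higher. Ifit3 stood at 3.66 and 5.29 CPM in WT and 3.22 and 1.08 CPM in dKO without cytokines and Iigp1 at 33.5 and 29.2 CPM in WT and 29.1 and 45.5 CPM in dKO, so the genotypes overlapped in Iigp1 and lay within a few CPM of each other in Ifit3.

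**Figure D4:**
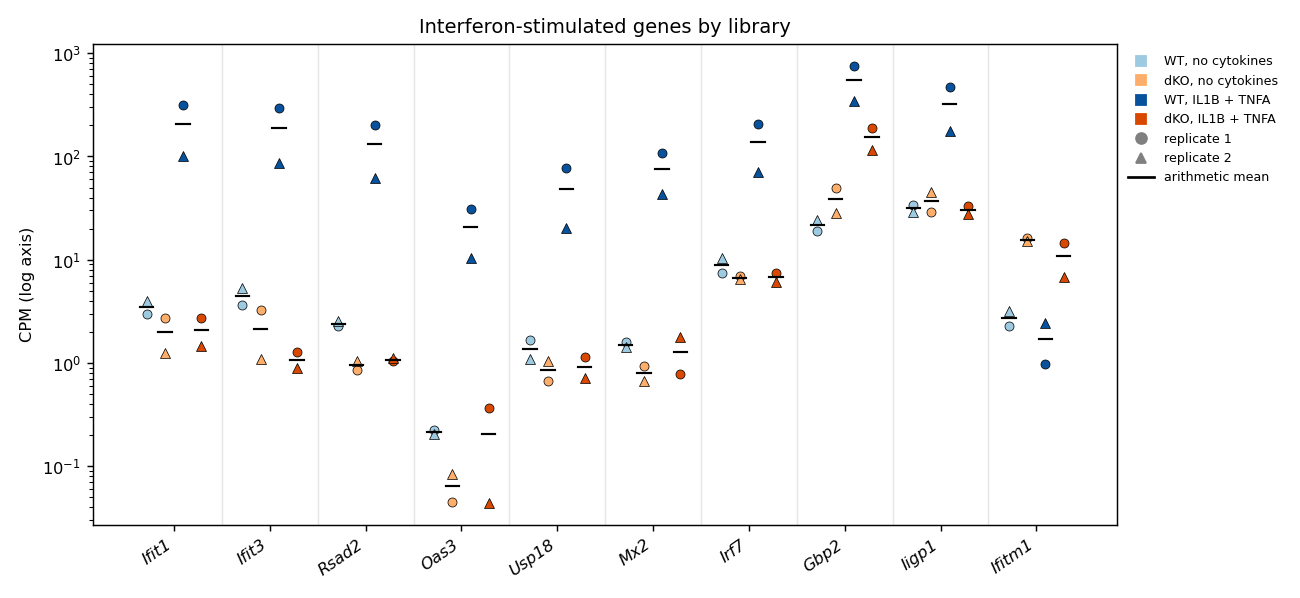
CPM on a log axis of 10 genes of the interferon system in all 8 libraries, with circles for replicate 1, triangles for replicate 2 and bars for the arithmetic mean. The WT libraries under cytokines stand above all others, replicate 1 above replicate 2, except in Ifitm1, where both dKO groups are the higher ones.

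The signalling chain behind these genes was measured as well. Of 20 JAK-STAT and IRF genes, 8 were lower and 2 higher (median -0.18), beside 15.4% and 18.6% of all tested genes. Irf7, which amplifies interferon production, stood at 207 and 71.1 CPM in WT and 7.5 and 6.1 CPM in dKO (log2 -4.36, SE 0.54, adjusted p = 0.00431). Stat2 and Irf9, which act together in the interferon-activated factor, were lower, with log2 differences of -2.25 and -2.32. Jak1, the kinase shared by interferon receptors, stood at 942 and 797 CPM in WT and 296 and 406 CPM in dKO (log2 -1.31, SE 0.22, adjusted p = 0.00773), and Jak2 was higher, at 577 and 485 CPM in WT and 1418 and 1187 CPM in dKO (log2 1.29, SE 0.15, adjusted p = 0.00317).

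Usp18, a brake on interferon receptor signalling, stood at 77.3 and 20.2 CPM in WT and 1.14 and 0.707 CPM in dKO (log2 -5.72, SE 0.78, adjusted p = 0.00525). Irf1 (-0.75) and Irf5 (-1.37) were also lower, and the receptor gene Ifnar2 was higher (0.64). Irf5 shares 14.15% of its exon bases with Tnpo3, so its count is uncertain. Transcripts of interferon beta were scarce. Ifnb1 was too low to be tested and stood at 0.441 and 0.0785 CPM in WT, with no count in either dKO library or in any untreated library. The 8 lower members were 5 without WT 1, and the 2 higher members 1 without WT 1 or WT 2.

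Promoters of the members with the largest changes are shown because the NF-kB, AP-1, ETS and interferon motifs bear on these lists. Sequences are from RefSeq (GRCm38.p6), 250 bases before the annotated start, 5′ to 3′ on the gene's strand, with capitals for motif matches. Motifs were searched on both strands as AGGAAGT or CGGAAGT for an ETS core, TGANTCA for AP-1, GGGA, any base and TTTCC for NF-kB, and GAAA, any 2 bases and GAAA for an interferon response element. No 2 matches to different motifs overlap in the sequences shown. The 4 interferon genes were chosen after their values were seen, and the other 6 by rule from the endothelial identity, CXC and NF-kB lists. Cxcl11 and Ripk2 are named only. The windows are Ifit3 (chr19:34583279-34583528, plus strand), Rsad2 (chr12:26456453-26456702, minus strand), Ifit1 (chr19:34640639-34640888, plus strand), Tgtp2 (chr11:49064213-49064462, minus strand), Cxcl10 (chr5:92348890-92349139, minus strand), Cxcl9 (chr5:92328080-92328329, minus strand), Tie1 (chr4:118489850-118490099, minus strand), Cxcl12 (chr6:117168285-117168534, plus strand), Tnfaip6 (chr2:52037863-52038112, plus strand) and Lcn2 (chr2:32387740-32387989, minus strand). The first 7 genes were lower and the last 3 higher in dKO.
Ifit3: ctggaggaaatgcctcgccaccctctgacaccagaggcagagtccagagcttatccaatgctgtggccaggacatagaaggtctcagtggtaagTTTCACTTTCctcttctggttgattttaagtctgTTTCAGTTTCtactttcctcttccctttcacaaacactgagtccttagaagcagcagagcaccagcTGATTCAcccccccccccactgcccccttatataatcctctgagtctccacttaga
Rsad2: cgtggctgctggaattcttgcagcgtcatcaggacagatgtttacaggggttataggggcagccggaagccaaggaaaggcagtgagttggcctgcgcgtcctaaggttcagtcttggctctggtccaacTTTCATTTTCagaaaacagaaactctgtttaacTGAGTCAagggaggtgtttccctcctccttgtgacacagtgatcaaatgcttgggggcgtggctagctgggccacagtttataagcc
Ifit1: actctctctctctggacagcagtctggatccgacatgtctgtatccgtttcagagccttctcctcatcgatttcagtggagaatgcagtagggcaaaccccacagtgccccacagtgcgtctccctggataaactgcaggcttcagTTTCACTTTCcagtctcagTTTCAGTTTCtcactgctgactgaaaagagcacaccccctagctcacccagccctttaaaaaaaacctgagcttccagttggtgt
Tgtp2: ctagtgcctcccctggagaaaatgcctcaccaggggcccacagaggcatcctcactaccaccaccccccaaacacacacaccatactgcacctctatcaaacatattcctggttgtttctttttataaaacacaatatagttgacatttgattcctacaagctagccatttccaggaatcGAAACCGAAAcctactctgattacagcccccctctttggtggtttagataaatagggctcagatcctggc
Cxcl10: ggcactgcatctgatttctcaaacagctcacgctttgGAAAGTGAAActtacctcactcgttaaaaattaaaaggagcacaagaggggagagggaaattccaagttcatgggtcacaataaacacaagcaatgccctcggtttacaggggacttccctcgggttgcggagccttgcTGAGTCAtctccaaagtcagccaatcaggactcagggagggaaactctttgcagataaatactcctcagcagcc
Cxcl9: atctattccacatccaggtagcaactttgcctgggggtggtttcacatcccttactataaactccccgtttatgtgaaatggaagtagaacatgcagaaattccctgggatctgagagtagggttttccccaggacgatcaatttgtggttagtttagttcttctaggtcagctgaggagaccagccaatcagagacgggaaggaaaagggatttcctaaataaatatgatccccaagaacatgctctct
Tie1: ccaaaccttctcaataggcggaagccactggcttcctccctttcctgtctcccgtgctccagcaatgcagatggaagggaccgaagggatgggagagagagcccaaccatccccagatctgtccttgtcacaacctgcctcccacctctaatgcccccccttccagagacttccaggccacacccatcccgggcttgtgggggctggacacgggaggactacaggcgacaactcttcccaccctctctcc
Cxcl12: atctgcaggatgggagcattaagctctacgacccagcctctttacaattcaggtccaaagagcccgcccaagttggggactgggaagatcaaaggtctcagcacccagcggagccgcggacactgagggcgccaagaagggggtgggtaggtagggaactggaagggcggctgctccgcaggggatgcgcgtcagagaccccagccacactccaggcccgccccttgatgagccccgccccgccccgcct
Tnfaip6: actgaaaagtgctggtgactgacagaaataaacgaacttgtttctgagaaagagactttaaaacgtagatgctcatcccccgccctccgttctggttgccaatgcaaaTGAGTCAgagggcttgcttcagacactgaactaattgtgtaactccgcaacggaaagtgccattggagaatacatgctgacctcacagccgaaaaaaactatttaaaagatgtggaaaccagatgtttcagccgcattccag
Lcn2: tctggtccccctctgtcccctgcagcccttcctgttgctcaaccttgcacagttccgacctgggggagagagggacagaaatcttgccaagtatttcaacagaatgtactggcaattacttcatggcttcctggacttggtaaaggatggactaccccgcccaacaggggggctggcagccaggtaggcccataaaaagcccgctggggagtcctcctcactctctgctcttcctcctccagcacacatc

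The interferon response element was found in the window of 9 of the 10 GTPase genes and 9 of the 30 antiviral genes that matched the promoter table. Of all 27025 genes of the table, 3.46% had it. Among tested genes it was held by 4.66% of the lower, 2.91% of the higher and 2.93% of the other genes. An ETS core was held by 21.3% of lower, 14% of higher and 18.5% of other genes, and by 13.8% of the whole table. AP-1 was held by 7.82% and NF-kB by 0.414% of the table. In the antiviral, GTPase, endothelial identity, CXC and NF-kB lists, 30, 10, 22, 11 and 27 genes matched. In that order an ETS core was held by 13.3%, 10%, 18.2%, 9.09% and 22.2% of these genes. For AP-1 the shares were 20%, 20%, 4.55%, 9.09% and 18.5%, and for NF-kB 3.33%, 10%, 0%, 27.3% and 11.1%. In the sequences shown, Ifit3 has 2 interferon elements and 1 AP-1 match, Cxcl10 and Rsad2 have 1 of each, Ifit1 has 2 and Tgtp2 has 1 interferon element, and Tnfaip6 has 1 AP-1 match. Cxcl9, Tie1, Cxcl12 and Lcn2 have no match to the exact patterns searched in this window. Looser forms of these motifs were not searched, so a window without capitals is not shown to lack them. A match is a run of letters and not a measured binding site.

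MHC class I molecules show peptides to T cells, and the immunoproteasome and TAP transporter supply these peptides. Of 20 such genes, 10 were lower and 0 higher (median -0.89). Tap1 stood at 166 and 64.2 CPM in WT and 31.1 and 24.1 CPM in dKO (log2 -2.06, SE 0.44, adjusted p = 0.0172), and the immunoproteasome subunit Psmb8 at 83.2 and 37 CPM in WT and 24.3 and 18.2 CPM in dKO (log2 -1.5, SE 0.38, adjusted p = 0.0285). B2m, the light chain of all class I molecules, stood at 1483 and 1193 CPM in WT and 741 and 794 CPM in dKO (log2 -0.80, SE 0.14, adjusted p = 0.00868). WT 1 was the highest library in each of these genes, and dKO libraries were close to each other. Psmb10, Psme1, Psme2, Tap2, Erap1, H2-Q4 and H2-D1 were also lower. H2-Q4, Tap2 and Erap1 overlap other annotated genes, and H2-Q genes are near copies, so these are uncertain. Lower members numbered 3 without both dKO 2 libraries, 4 without dKO 2, 5 without WT 1 or dKO 1 and 6 without untreated WT 1 or untreated WT 2.

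Of 11 MHC class II and costimulatory genes, 3 were higher and 2 lower (median 0.41), beside 18.6% and 15.4% of all tested genes. The class II gene H2-Ab1 stood at 0.882 and 2.4 CPM in WT and 8.63 and 13.2 CPM in dKO (log2 2.72, SE 0.49, adjusted p = 0.00927), and the costimulatory genes Cd276 and Cd40 were higher by 2.22 and 1.74. Cd274, the checkpoint ligand PD-L1, stood at 38.8 and 12.8 CPM in WT and 5.77 and 4.11 CPM in dKO (log2 -2.38, SE 0.51, adjusted p = 0.0162), and Lgals9 was lower, with a log2 difference of -1.88. The genotypes did not overlap in H2-Ab1 or Cd274. The 2 lower members were 0 without both dKO 2 libraries and 1 without dKO 1 or dKO 2.

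Acute-phase and complement proteins are typical products of an inflamed liver. Of 16 acute-phase genes, 9 were higher and 1 lower (median 3.0). Serpina3n, a protease inhibitor, stood at 235 and 143 CPM in WT and 1933 and 882 CPM in dKO (log2 2.9, SE 0.51, adjusted p = 0.0101). Lbp, the lipopolysaccharide-binding protein, stood at 365 and 358 CPM in WT and 2662 and 1004 CPM in dKO (log2 2.34, SE 0.58, adjusted p = 0.0272), and haptoglobin, Hp, at 0.706 and 2.67 CPM in WT and 61.1 and 60.1 CPM in dKO (log2 5.14, SE 0.55, adjusted p = 0.0032). The 2 dKO libraries of Serpina3n and Lbp were over 2-fold apart, dKO 1 above dKO 2, and those of Hp almost equal. Saa1 (4.63), Saa2 (7.84), Hpx (3.66), Cp (1.25), Itih2 (3.09) and Itih4 (3.78) were higher, and Serpina3g was lower (-1.53). Saa2 can share counts with its near copies. Of higher members there were 3 without WT 1 or WT 2 and 5 without dKO 1, and the lower gene was 0 without WT 1, WT 2 or dKO 1, 2 without untreated dKO 1 or untreated dKO 2 and 3 without both dKO 2 libraries.

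Of 16 complement genes, 4 were higher and 3 lower (median 0.55), near the 18.6% and 15.4% of all tested genes. The components C4b (3.85) and C1s1 (1.25) and the soluble regulator Serping1 were among the higher genes. Serping1, the inhibitor of C1, stood at 101 and 128 CPM in WT and 531 and 321 CPM in dKO (log2 1.89, SE 0.37, adjusted p = 0.0134). The lower genes were membrane-bound regulators. Cd55, the decay-accelerating factor, stood at 1727 and 1154 CPM in WT and 192 and 393 CPM in dKO (log2 -2.3, SE 0.68, adjusted p = 0.045), and Cr1l and Cd59a were lower, with log2 differences of -1.65 and -1.23. The higher count was 0 without WT 1 or WT 2, 1 without dKO 1 and 8 without both dKO 2 libraries, and the lower count 1 without WT 1, WT 2 or dKO 1.

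Genes of vascular tone and prostanoid synthesis were higher in 8 of 18 and lower in 1 (median 1.04). Ace, the angiotensin-converting enzyme of endothelium, stood at 4.41 and 8.01 CPM in WT and 259 and 303 CPM in dKO (log2 5.5, SE 0.44, adjusted p = 0.00154). Ptges, the inducible prostaglandin E synthase, stood at 325 and 319.5 CPM in WT and 1239.7 and 1104 CPM in dKO (log2 1.86, SE 0.23, adjusted p = 0.00343), and Pla2g4a, which frees its substrate, at 123 and 87.7 CPM in WT and 388 and 299 CPM in dKO (log2 1.71, SE 0.23, adjusted p = 0.00443). The libraries of each genotype lay close together in Ptges. Ptgs2, the inducible cyclooxygenase, stood at 1846 and 1469 CPM in WT and 3931 and 3582 CPM in dKO (adjusted p = 0.0525). Nos2 (1.54), Ptger4 (3.17), Ptgis (0.90) and Ptgs1 (0.78) were higher, Ednra had no count in WT (at least 15.1-fold higher, adjusted p = 0.0163), and Ece1 was lower (-0.79). The count of higher members was 4 without WT 1 or WT 2 and 5 without dKO 1, and the lower gene was 0 without WT 1, WT 2 or dKO 1, 2 without dKO 2 and 3 without both dKO 2 libraries.

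Of 21 coagulation and fibrinolysis genes, 7 were higher and 5 lower (median 0.07), beside 18.6% and 15.4% of all tested genes. F2r, the main thrombin receptor, stood at 32.4 and 30 CPM in WT and 675 and 329 CPM in dKO (log2 4.01, SE 0.45, adjusted p = 0.00338). Serpinb2, an inhibitor of plasminogen activators, stood at 12.9 and 17.8 CPM in WT and 837 and 654 CPM in dKO (log2 5.6, SE 0.37, adjusted p = 0.00106), and F5, the cofactor of factor X, at 13.9 and 8.76 CPM in WT and 111 and 142 CPM in dKO (log2 3.49, SE 0.32, adjusted p = 0.00221). Tfpi2, a protease inhibitor of the clotting family, stood at 76.2 and 109.9 CPM in WT and 9.18 and 12.2 CPM in dKO (log2 -3.12, SE 0.40, adjusted p = 0.00427), and Thbs1, thrombospondin-1, at 1569 and 1778 CPM in WT and 292 and 732 CPM in dKO (log2 -1.71, SE 0.44, adjusted p = 0.0294). The genotypes did not overlap in these 5 genes. Plat and Pros1 were higher by 1.49 and 0.43, and F2rl2 and F10 had no count in WT, at least 74-fold and at least 17.6-fold higher. Plaur, S100a10 and Anxa2, which act in plasmin formation at the cell surface, were lower, with log2 differences of -2.01, -1.4 and -0.42. Higher members numbered 4 without WT 1, and the lower count 2 without WT 1, 3 without untreated WT 1, untreated WT 2 or WT 2 and 8 without both dKO 2 libraries.

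Angiogenic growth factors were higher in 8 of 22 and lower in 0 (median 0.31). Vegfa, the main vascular growth factor, stood at 363 and 392 CPM in WT and 3206 and 1931 CPM in dKO, 6.81-fold higher (log2 2.77, SE 0.35, adjusted p = 0.00384). Vegfc, the growth factor of lymphatic vessels, stood at 52.5 and 49.2 CPM in WT and 691 and 417 CPM in dKO (log2 3.45, SE 0.30, adjusted p = 0.00172). Both dKO libraries were several-fold above both WT libraries in both genes, and dKO 1 was the higher. Fgf2 (3.45), Angptl2 (4.57), the EGF family ligands Areg (3.15) and Ereg (3.19), and Pdgfc (1.76) were higher, and Vegfd had 2 counts in WT, a ratio of 56.6 (95% counting interval 15.3 to 474). Of higher members there were 5 without WT 1, and the lower count 7 without both dKO 2 libraries.

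Notch signalling sets arterial fate. Of 17 Notch and arterial genes, 4 were higher and 3 lower (median 0.52), near the all-gene shares of 18.6% and 15.4%. The ligand Jag1 stood at 167 and 141 CPM in WT and 29.8 and 33.3 CPM in dKO (log2 -2.28, SE 0.20, adjusted p = 0.00154), and the receptor Notch1 at 100.10 and 93.8 CPM in WT and 28.7 and 46 CPM in dKO (log2 -1.37, SE 0.37, adjusted p = 0.0353). Notch3, a receptor of mural cells, stood at 0.573 and 0.51 CPM in WT and 23.8 and 22.2 CPM in dKO (log2 5.4, SE 0.21, adjusted p = 0.000344), and Notch2 was higher (1.99). The libraries of each genotype nearly coincided for Notch3. Mgp, matrix Gla protein, stood at 1.15 and 2.94 CPM in WT and 313 and 602 CPM in dKO (log2 7.79, SE 1.14, adjusted p = 0.00652), Unc5b was higher (1.9) and Nrp1 lower (-1.24). Of lower members there were 6 without both dKO 2 libraries.

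Of 22 junction genes and their anchors, 4 were higher and 4 lower (median -0.19), which is close to the all-gene shares of 18.6% and 15.4%. The connexin genes Gja4, of arterial gap junctions, and Gjc1 were higher, Gja4 at 4.67 and 1.73 CPM in WT and 149 and 72.9 CPM in dKO (log2 5.12, SE 0.65, adjusted p = 0.00452) and Gjc1 by 1.4. Cdh1, the epithelial cadherin, stood at 0.573 and 0.628 CPM in WT and 4.82 and 2.47 CPM in dKO (log2 2.59, SE 0.47, adjusted p = 0.00927), and Cdh2, N-cadherin, was higher by 0.51. The catenin genes that tie cadherins to actin were lower, Ctnna1 at 809.5 and 913 CPM in WT and 319 and 500.0 CPM in dKO (log2 -1.07, SE 0.25, adjusted p = 0.0195) and Ctnnd1 with a log2 difference of -0.80, with Afdn (-0.69) and Cldn1 (-1.91). The higher count was 2 without WT 1 or WT 2, and the lower count 0 without WT 1 or WT 2, 1 without dKO 1, 2 without untreated WT 2 and 9 without both dKO 2 libraries.

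The matrix genes were the second broad group, here towards higher levels in dKO. Of 32 collagens and processing genes, 18 were higher and 2 lower (median 2.07). Col1a2, a chain of type I collagen, stood at 3.84 and 8.32 CPM in WT and 229.5 and 220.1 CPM in dKO, 37-fold higher (log2 5.2, SE 0.39, adjusted p = 0.00128). Col3a1, the collagen of reticular fibres, stood at 44.7 and 42.8 CPM in WT and 1449 and 419 CPM in dKO (log2 4.41, SE 0.98, adjusted p = 0.0204). Lox, which cross-links collagen, stood at 66.4 and 98.2 CPM in WT and 1297 and 945 CPM in dKO (log2 3.77, SE 0.33, adjusted p = 0.00183), and its relative Loxl1 at 0.661 and 0.942 CPM in WT and 227 and 148 CPM in dKO (log2 7.85, SE 0.62, adjusted p = 0.00166). The dKO libraries were nearly equal for Col1a2, whereas Col3a1 was over 3-fold higher in dKO 1 than in dKO 2. Of the 7 fibrillar chains 5 were higher, and of the 7 basement membrane chains 2. Loxl2 (-0.91) and Loxl4 (-2.06) were the lower members. The count of higher members was 9 without WT 2 and 11 without WT 1 or dKO 1, and the lower count 0 without WT 1 or WT 2 and 4 without both dKO 2 libraries.

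Of 40 matrix glycoproteins and proteoglycans, 17 were higher and 2 lower (median 1.21). Bgn, a small proteoglycan that binds collagen, stood at 1030.4 and 837 CPM in WT and 3993 and 2944 CPM in dKO (log2 1.89, SE 0.23, adjusted p = 0.00338). Sdc1, a heparan sulfate proteoglycan typical of epithelium and plasma cells, stood at 6.48 and 8.99 CPM in WT and 156 and 149 CPM in dKO (log2 4.3, SE 0.19, adjusted p = 0.000497), and Fbln2 at 86.9 and 121 CPM in WT and 804 and 674 CPM in dKO (log2 2.83, SE 0.21, adjusted p = 0.00116). Fn1, fibronectin, stood at 2049.5 and 1888 CPM in WT and 4969 and 4949 CPM in dKO (log2 1.33, SE 0.37, adjusted p = 0.0346). In all 4 genes the libraries of a genotype differed less from each other than from the other genotype. Has1, a hyaluronan synthase, was higher as well (5.78). The laminin chain Lamc1 (-1.54) was among the lower members. Higher members numbered 10 without dKO 1 and 11 without WT 1 or WT 2, and the lower count 0 without WT 1, 4 without dKO 2 and 9 without both dKO 2 libraries.

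Metalloproteinases cleave matrix and TIMP proteins block them. Of 20 genes of both kinds, 9 were higher and 1 lower (median 1.18). Timp1 stood at 156 and 167 CPM in WT and 1439.7 and 713 CPM in dKO (log2 2.74, SE 0.33, adjusted p = 0.00369), and 4 of 5 inhibitors were higher. Among the proteases, Mmp14, a membrane-bound activator, stood at 487 and 565 CPM in WT and 1362 and 1015 CPM in dKO (log2 1.18, SE 0.18, adjusted p = 0.00562), and Mmp9, a gelatinase, at 33.2 and 30.5 CPM in WT and 74.5 and 84.3 CPM in dKO (log2 1.31, SE 0.37, adjusted p = 0.0372). No library of one genotype reached the other in these genes. Adamts9 was the lower member (-0.64), and the lower count was 0 without WT 1, WT 2, dKO 1 or dKO 2.

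Mesenchymal transcription factors were higher in 6 of 17 and lower in 1 (median 1.3). Prrx1, a factor of fibroblasts and limb mesenchyme, stood at 1.23 and 3.53 CPM in WT and 253 and 314 CPM in dKO (log2 6.88, SE 0.79, adjusted p = 0.00373). Runx2, the regulator of bone formation, stood at 0.132 and 0.432 CPM in WT and 12.3 and 15.5 CPM in dKO (log2 5.57, SE 0.53, adjusted p = 0.00198), and Snai1, a repressor of epithelial genes, at 6.88 and 7.85 CPM in WT and 16.8 and 19.7 CPM in dKO (log2 1.3, SE 0.14, adjusted p = 0.00276). In these 3 genes dKO 2 was the higher dKO library, and the genotypes did not overlap. Prrx2 (4.38), Sox9 (3.79) and Twist2 (2.11) were higher and Zeb1 was lower (-0.53). The lower count was 0 without WT 1, WT 2 or dKO 1. Of 18 contractile genes 4 were higher and 4 lower (median 0.09), beside 18.6% and 15.4% of all tested genes. Acta2, smooth muscle actin, stood at 6.17 and 6.16 CPM in WT and 2.13 and 6.27 CPM in dKO (adjusted p = 0.424), and its libraries overlapped. Cald1, caldesmon, stood at 314 and 329.6 CPM in WT and 1565 and 953 CPM in dKO (log2 1.97, SE 0.23, adjusted p = 0.00329), with Tpm2 (2.42), Myl9 (1.22) and Smtn (0.91) also higher and Cnn2 (-1.28), Mylk (-1.12), Csrp1 (-0.97) and Srf (-0.68) lower. The contractile counts were 2 without WT 1 for higher and 0 without WT 1 and 1 without dKO 1 for lower members.

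In the TGF-beta and BMP pathway 10 of 32 genes were higher and 5 lower (median 0.28), beside 18.6% and 15.4% of all tested genes. The ligands Tgfb2 (1.91) and Tgfb3 (2.02) and the receptor Tgfbr1 (0.78) were higher, and Tgfb1 was lower (-0.70). Gdf15, a stress-induced ligand, stood at 1.06 and 1.45 CPM in WT and 55.6 and 15.9 CPM in dKO (log2 4.82, SE 0.67, adjusted p = 0.00545). The BMP antagonist Grem1 stood at 101 and 119 CPM in WT and 728 and 1622 CPM in dKO (log2 3.41, SE 0.63, adjusted p = 0.0121), and the antagonists Nog (5.84), Chrd (4.34) and Bmper (1.83) were higher too. Fst, which binds activin, stood at 390.1 and 218 CPM in WT and 48 and 76.6 CPM in dKO (log2 -2.29, SE 0.52, adjusted p = 0.0212). Chrdl1, another antagonist, had 1 count in dKO, and for WT over dKO a ratio of 232 (95% counting interval 41.2 to 9195). Of the feedback and target genes, Smad7 was higher (1.14), Smad6 (-0.73) and Id2 (-1.23) were lower, and Smad9 was higher (1.47). Of higher members there were 6 without WT 1 or WT 2, and the lower count 1 without WT 1 or dKO 1, 2 without untreated WT 1, untreated WT 2 or WT 2 and 11 without both dKO 2 libraries.

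Guidance and Wnt genes were higher in 14 of 32 and lower in 3 (median 0.40). In the Wnt group 8 of 12 were higher, among them the secreted modulators Sfrp2 (0 and 0.51 CPM in WT and 13.9 and 20 CPM in dKO, log2 5.96, SE 1.26, adjusted p = 0.0175), Dkk2 (3.7) and Dkk3 (2.65) and the factor Tcf7 (2.91). Fzd4, a Wnt and norrin receptor of vessels, was lower (-0.52). The Eph receptors Ephb3 (3.9) and Epha4 (2.33) and the guidance ligand Slit3 (51.6 and 40.7 CPM in WT and 273 and 237 CPM in dKO, log2 2.46, SE 0.19, adjusted p = 0.00127) were higher. Sema3e, a repulsive cue of vessels, stood at 12.4 and 24.1 CPM in WT and 3.59 and 5.26 CPM in dKO (log2 -2.04, SE 0.39, adjusted p = 0.0125), and Plxna2 was lower (-2.41). The higher count was 5 without WT 1, 6 without dKO 1 and 7 without WT 2, and the lower count 0 without dKO 1, 1 without WT 1 or WT 2 and 7 without untreated dKO 1, untreated dKO 2 or both dKO 2 libraries.

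Of 17 integrin genes, 6 were higher and 2 lower (median 0.04), beside 18.6% and 15.4% of all tested genes. Itgb5 stood at 1.9 and 1.92 CPM in WT and 41.5 and 27.9 CPM in dKO (log2 4.18, SE 0.34, adjusted p = 0.00131) and its alpha partner Itgav at 176 and 164 CPM in WT and 329.8 and 270.0 CPM in dKO (log2 0.82, SE 0.15, adjusted p = 0.0104). Itgb3, the other beta partner of Itgav and a component of angiogenic endothelium, stood at 1172 and 1134 CPM in WT and 413 and 643 CPM in dKO (log2 -1.13, SE 0.24, adjusted p = 0.0152), against 173 and 178 CPM in WT and 143 and 199 CPM in dKO without cytokines. The genotypes overlapped for Itgb3 at rest and not under cytokines. In edgeR with the design used here, the change between these conditions did not pass for Itgb3 (adjusted p = 0.339). Itga7 (2.34), Itgb4 (1.53), Itga1 (1.05) and Itga11, with 1 count in WT (a ratio of 47.4 (95% counting interval 8.08 to 1916)), were higher, and Itga9 was lower (-0.82). The count of higher members was 2 without WT 1 and 3 without WT 2, and the lower count 0 without WT 1, WT 2 or dKO 1 and 5 without both dKO 2 libraries.

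Of 48 cell cycle genes, 22 were lower and 8 higher (median -0.68). Mki67, the marker of cycling cells, stood at 34.1 and 34.4 CPM in WT and 4.18 and 6.14 CPM in dKO (log2 -2.73, SE 0.33, adjusted p = 0.00349). Mcm5, a subunit of the replication helicase, stood at 23.8 and 23.6 CPM in WT and 5.27 and 6.32 CPM in dKO (log2 -2.03, SE 0.21, adjusted p = 0.00241), and Mcm6 at 67.2 and 59.1 CPM in WT and 13.3 and 23.1 CPM in dKO (log2 -1.8, SE 0.28, adjusted p = 0.00636). The libraries of each genotype were close in these 3 genes and did not overlap. Of 14 replication genes 10 were lower and 2 higher, and of 20 mitosis genes 9 were lower and 0 higher. Of 14 regulators of G1, 6 were higher and 3 lower. Among the higher ones, Cdkn2a, which encodes the inhibitors p16 and p19ARF, stood at 49.2 and 49.3 CPM in WT and 138 and 142 CPM in dKO (log2 1.51, SE 0.11, adjusted p = 0.00116), and the inhibitors Cdkn1b (0.96), Cdkn2b (1.04) and Cdkn2c (1.76) were higher, as were Ccnd2 (1.07) and E2f1 (1.28). Lower members numbered 7 without dKO 1, 8 without WT 1 and 10 without WT 2, and the higher count 3 without WT 2 and 4 without WT 1.

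Genes of p53 response and cell death were lower in 10 of 29 and higher in 6 (median -0.29). Over all tested genes 15.4% were lower and 18.6% higher. Of 11 death receptor, caspase and effector genes 7 were lower, among them Mlkl, the pore former of necroptosis, at 176 and 135 CPM in WT and 74.8 and 65.9 CPM in dKO (log2 -1.15, SE 0.16, adjusted p = 0.00442). Of the BCL2 family, the survival gene Mcl1 stood at 314 and 325 CPM in WT and 110.3 and 178 CPM in dKO (log2 -1.15, SE 0.23, adjusted p = 0.0139), and Bcl2, also a survival gene, at 9.26 and 13.6 CPM in WT and 34.9 and 28.6 CPM in dKO (log2 1.47, SE 0.26, adjusted p = 0.00855). The genotypes did not overlap in these genes. Bak1 (-1.0) and Bid (-0.97) were lower but overlap other annotated genes. Of 10 p53 targets 3 were higher and 0 lower. Of lower members there were 2 without WT 1, 4 without dKO 1 and 6 without WT 2, and the higher count 2 without WT 1.

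Of 28 glycolysis and hypoxia genes, 7 were higher and 5 lower (median -0.03), not far from 18.6% and 15.4% over all tested genes. A difference between the 2 kinds was not tested. Of 12 hypoxia response genes 5 were higher and 0 lower. Egln3, an oxygen sensor that is itself induced by hypoxia, stood at 460.2 and 499.9 CPM in WT and 1633 and 1579.8 CPM in dKO (log2 1.74, SE 0.11, adjusted p = 0.000946), and Ddit4 at 105 and 114 CPM in WT and 704 and 435 CPM in dKO (log2 2.38, SE 0.27, adjusted p = 0.00305). Of 16 glycolysis genes 5 were lower, among them Hk1 (-0.85) and Pfkfb3 (-0.60), and 2 were higher, Gpi1 (1.14) and the glucose transporter Slc2a1 (0.48). Higher members numbered 4 without WT 2, and the lower count 0 without WT 1, WT 2 or dKO 1.

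Of 32 stress and immediate early genes, 7 were higher and 5 lower (median 0.14), about the 18.6% and 15.4% of all tested genes. Nqo1, an antioxidant enzyme under NRF2, stood at 14.2 and 10.2 CPM in WT and 179.6 and 40.4 CPM in dKO (log2 3.18, SE 0.76, adjusted p = 0.025), and Gclm, of glutathione synthesis, at 72.1 and 65.4 CPM in WT and 443 and 125 CPM in dKO (log2 2.05, SE 0.55, adjusted p = 0.0345). In both genes dKO 1 was over 3-fold above dKO 2. The metallothionein genes Mt1 (2.14) and Mt2 (2.24) and the factors Egr1, Egr2 and Egr3 were higher. Atf4 (-0.72), Asns (-1.27), Dusp1 (-1.73), Fosl2 (-0.38) and Jund (-0.39) were lower. Of higher members there were 0 without WT 1, 2 without WT 2 or dKO 1, 3 without untreated WT 1 or untreated WT 2 and 11 without both dKO 2 libraries, and the lower count 0 without WT 1, WT 2 or dKO 1, 2 without untreated WT 2, 3 without untreated WT 1 and 10 without both dKO 2 libraries.

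Markers of other cell types were read in the same libraries. The summed level of 20 markers of stellate cells, pericytes and fibroblasts was 143 and 256 CPM in WT and 1347 and 878 CPM in dKO, and 4 of 13 tested members were higher. Pdgfra, a receptor of fibroblasts, stood at 32.2 and 25.4 CPM in WT and 1174 and 616 CPM in dKO (log2 4.96, SE 0.47, adjusted p = 0.00232) and made up most of that sum in dKO. Lrat, Reln, Des, Gfap, Lhx2 and 5 others of the 20, defining genes of stellate cells among them, stayed under 1 CPM in all 4 libraries. Hepatocyte markers summed to 3.0 and 2.2 CPM in WT and 154 and 116 CPM in dKO, with Ahsg, Trf and Rbp4 higher and 11 of 14, Alb and Apoa1 among them, under 1 CPM. Markers of cholangiocytes and mesothelium summed to 8.56 and 8.29 CPM and 159 and 272 CPM, with Spp1, Sox9 and Cdh1 higher and 8 of 14, Epcam and Krt7 among them, under 1 CPM. Leukocyte markers summed to 527 and 553 CPM and 180.0 and 139 CPM, nearly all of it Cd14, which was lower (-1.82), and 17 of 22, Ptprc and Adgre1 among them, were under 1 CPM. The mesenchymal marker sum was higher in dKO than in WT, and so were many of the matrix genes above. A relation between them was not tested, nor was the part of other cells in those results.

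The last question is whether the genotype difference under cytokines differed from that without. In edgeR the test of this difference called 0 of 15698 genes (0.0%), with 1683 at an unadjusted p under 0.05 and a smallest adjusted p of 0.100. DESeq2 called 372 of 13609 genes (2.73%), 150 towards higher (1.1%) and 222 towards lower (1.63%) in dKO under cytokines. Of the antiviral genes DESeq2 called 28 of 37 lower, of the GTPases 11 of 18, of NF-kB genes 6 of 33 and of CXC chemokines 5 of 12, and 0 members of these lists higher. Of endothelial identity genes it called 0 higher and 0 lower of 40. In edgeR the p of Ripk2 was 1.26e-05 unadjusted, 0.10 adjusted, and that of Ifit3 0.00134 unadjusted, 0.193 adjusted. For Pdgfrb, a receptor of pericytes and fibroblasts, it was 5.76e-05 unadjusted, 0.10 adjusted, and its untreated difference of 4.0 stood beside 1.12 under cytokines. The edgeR count was 75 without a filter on low counts, 41 without WT 2, 15 without dKO 2 and 193 without both dKO 2 libraries.

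**Figure D5:**
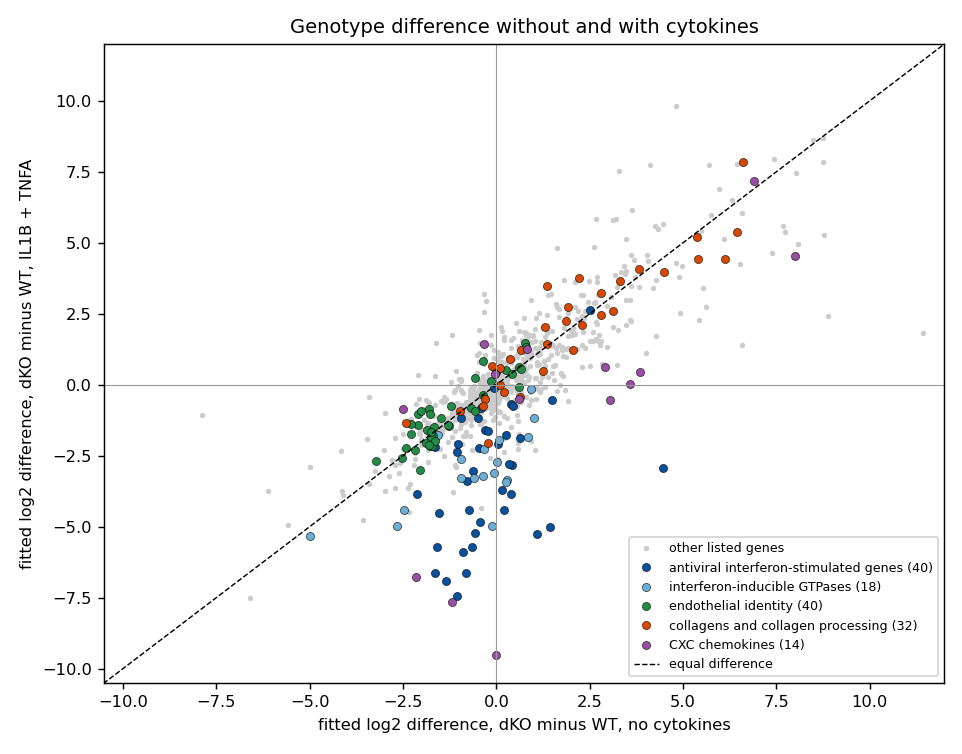
Fitted log2 difference of dKO minus WT without cytokines (horizontal) and with IL1B and TNFA (vertical) for the tested listed genes, with 5 lists coloured and a dashed line of equal difference. Antiviral genes and GTPases had medians of -0.43 and -0.22 without and -2.88 and -3.17 with cytokines. Among single members, Gvin1 (-2.65 and -4.97) was lower under both conditions. Gbp10 was lower with cytokines (-5.31). Its untreated position of -5.0 is a fitted value for a gene near the floor, with 0.148 and 0.169 CPM in WT and none in dKO. Bounded by that floor, the untreated fall is only known to exceed 2.45-fold, and it did not pass (edgeR adjusted p = 0.0702).

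In the untreated comparison 3617 genes (23%) were called. Endothelial identity genes had a median of -1.71 without and -1.4 with cytokines, collagens 1.62 and 2.07, and acute-phase proteins 2.56 and 3.0. MHC class I genes had 0.22 and -0.89, and leukocyte adhesion genes 0.03 and -0.62. Each comparison has its own WT and dKO libraries, and both share 1 estimate of the spread. The neutrophil chemokines Cxcl3 and Cxcl5 differed by 3.86 and 3.57 without cytokines and by 0.44 and 0.03 with them. In Cxcl5 the untreated levels were 72.9 and 203 CPM in WT and 1932 and 1349.8 CPM in dKO, so WT reached the dKO level only under cytokines.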

How the data were processed

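RNA was measured by polyA-selected RNA-seq in 8 libraries, 2 for each genotype and treatment. The deposited file holds raw counts per Ensembl gene made by the authors, 1 column per library and 52636 genes, of which 52489 matched a GENCODE M21 gene. The build GRCm38, STAR 2.7.6a and FastQC 0.11.5 are listed, per the submitters' processing notes. No source used here gives the counting program, annotation or strand setting. The labels' protocols name an unstranded or a stranded kit without saying which library used which, so overlapping and antisense genes are uncertain, and annotated exon overlap was read from the reference.

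Counts were tested in R 4.3.3 with edgeR 4.0.16. Genes with low counts were removed with filterByExpr, libraries were scaled by TMM, and quasi-likelihood tests were fitted on all 8 libraries, 4 groups and 4 residual degrees of freedom, with Benjamini-Hochberg adjustment over 15698 genes and a threshold of 0.05. The biological coefficient of variation was 24.3%. Where a group had no count, a fold is a bound, computed as if that group held 3 counts in all, and with 1 to 3 counts a ratio has a 95% counting interval, and both cover counting error only. Medians of the lists were the same with such genes at their bound.

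The lists and members were chosen with earlier results of these data known. Genes were named by a rule: Erg and Fli1, the 12 largest rises and 12 largest falls with at least 10 CPM in a group and no overlap, the 6 largest in each direction whose difference depended on cytokines, and the 4 largest changes of each list with at least 1 CPM. No gene met the condition on cytokines. Other genes named were chosen after their values were seen, and some members of the lists are not reported here by name. Promoter sequences are from a RefSeq table of 27025 genes and were matched by symbol. Alternatives were DESeq2 1.42.0, other scaling, filters, a replicate block, the 4 libraries compared alone, and libraries left out.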

Additional observations from a re-analysis of the deposited data

How the results depend on the processing

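The count of 5343 genes was 5783 in DESeq2, 5398 with another scaling, 4731 without a filter on low counts, 5362 with at least 1 CPM in 2 libraries and 3798 on the 4 libraries alone. Leaving out single libraries gave 1621 to 5523. Of 155 genes named by rule, 153 passed and 88 stayed past the threshold without each of the 4 treated libraries, and 0 reversed in any setting run.

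The count of 0 genes whose genotype difference depended on cytokines was 372 in DESeq2 and 75 without a filter, 0 to 41 with single libraries left out and 193 without both dKO 2 libraries. The cause of these changes was not tested.

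Samples of the 2 genotypes share only a replicate number. With a replicate block the count under cytokines was 6275. Erg and Fli1 passed in that fit (edgeR adjusted p = 0.0332 and 0.0258). Deviations of same-numbered libraries correlated at 0.434 within WT and 0.689 within dKO, and at 0.0168 to 0.134 across genotypes, a hint from the data and not the design. With a replicate block within genotype 947 genes depended on cytokines, 508 higher and 439 lower. In that fit the adjusted p of edgeR was 0.00185 for Ripk2, 0.0027 for Pdgfrb and 0.00471 for Itgb3, all past the threshold. Ifit3 did not pass there (edgeR adjusted p = 0.114). Of the antiviral genes 10 of 40 were called lower in that fit, and of the GTPases 4 of 18, with 0 higher in both lists. With 2 libraries a group, a gene that did not pass is not shown to be equal between genotypes.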
